A study of Sus scrofa with 48 samples.

Results

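The genes CD3E, CD4, CD8A, CD14 and CD163 mark the T cells and the macrophages that live in a tissue or pass through it with the blood. All probes whose accession on the array was paired with 1 of these 5 genes in RefSeq were taken, whatever their values, which gave 9 of the 43603 probes of the array, for 5 of the 1862 genes named on it. CD3E (RefSeq gene 397455) had the probe A_72_P165731, and CD8A (396627) had A_72_P077466. CD4 (404704) had A_72_P077421 and A_72_P306178, and CD14 (100037938) had A_72_P050971 and A_72_P088666. CD163 (397031) had A_72_P018171, A_72_P170001 and A_72_P177981.

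CD3E is a signalling chain of the complex that carries the T cell receptor to the surface, and without it a T cell shows no receptor. CD4 and CD8A are the coreceptors that split T cells into helper cells, which read class II molecules, and cytotoxic cells, which read class I molecules. In pigs CD8A is also found on natural killer cells and on part of the helper cells, so that its RNA does not mark cytotoxic T cells alone, and CD4 is carried by some dendritic cells. CD14 binds bacterial lipopolysaccharide together with LBP and hands it to TLR4. It sits on monocytes and macrophages, and hepatocytes also make and secrete it. CD163 is the scavenger receptor by which macrophages take up complexes of haemoglobin and haptoglobin, and the resident macrophages of the liver, the Kupffer cells, carry it.

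RNA of gluteus muscle (GM), liver and kidney of the same 16 F2 pigs of the Swiss Large White breed was hybridised in 1 colour to 48 Agilent porcine arrays, 1 per pig and tissue. The F2 C group held 8 offspring, 4 barrows and 4 females, whose paternal grandfathers (F0 boars) had a standard diet. The F2 E group held 8 offspring of the same make-up, whose F0 grandfathers had the standard diet with additional methionine, choline, betaine, vitamin B6, vitamin B12 and folate. The F1 fathers and the F2 pigs of both groups were on standard diets, no age at sampling is given in the labels, and the pigs were slaughtered at market weight with samples taken shortly after exsanguination. The F0 boars of both groups were brothers in part, and few F1 boars sired each group. Pigs of 1 group may therefore share a father, which the labels do not give, and a p-value over pigs measures the spread between these pigs. The comparison of F2 E with F2 C asks whether the diet of the grandfathers left a trace in these markers, and the comparison of tissues asks where the markers were highest.

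The brightness of the arrays is given in place of depth, but a brighter array did not always measure more spots. GM F2 E replicate 8 had a median signal of 88 and 18948 spots marked as well above background. GM F2 C replicate 6 had 50.5 and 23491. The middle spot had a signal between 48 and 88.5 on the GM arrays, between 88 and 167 on the liver arrays and between 48 and 240.5 on the kidney arrays, and the number of arrays limits the precision. The 2 dimmest kidney arrays, F2 E replicates 5 and 7, both had a median signal of 48. The arrays lay on 12 slides of 4, each slide held 1 tissue, and the kidney slides were scanned on a later day, so that tissue and slide cannot be told apart. In GM and kidney each slide also held 1 group of pigs. Liver slide 1 was scanned on an earlier day than the other liver slides. The labelled tissues were checked with genes of their main cells: 16 of 16 muscle probes, 9 of 9 hepatocyte probes and 4 of 5 kidney epithelium probes were higher on every array of their own tissue than on any other array.

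The probes differed in how often they measured anything. The software flags a spot as well above background by comparing it with the pixels around it. CD14 A_72_P050971 and the 3 CD163 probes were well above background on all 48 arrays, and no spot of the 9 probes was saturated or marked as an outlier. CD3E passed on 13 of the 16 GM arrays and on every liver and kidney array. CD8A passed on 13 GM, 16 liver and 15 kidney arrays. For CD14 A_72_P088666 these numbers were 11, 16 and 7. CD4 A_72_P077421 passed on 16 of 16 arrays in liver, on 5 in kidney and on 0 in GM. The other CD4 probe, A_72_P306178, passed on 1 kidney array of an F2 C pig only, stayed below the presence limit in every group and entered no test. To be tested, a probe needed a signal over 25 and that mark in 50% or more of the pigs of some tissue and line. The marks did not fall evenly on the groups in GM, where CD3E and CD8A each passed on 8 F2 C arrays and on 5 F2 E arrays and CD14 A_72_P088666 on 8 and 3. The GM arrays of F2 E also had fewer spots well above background over the whole array, between 18948 and 25728 against between 23491 and 28754 in F2 C.

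**Figure D1:**
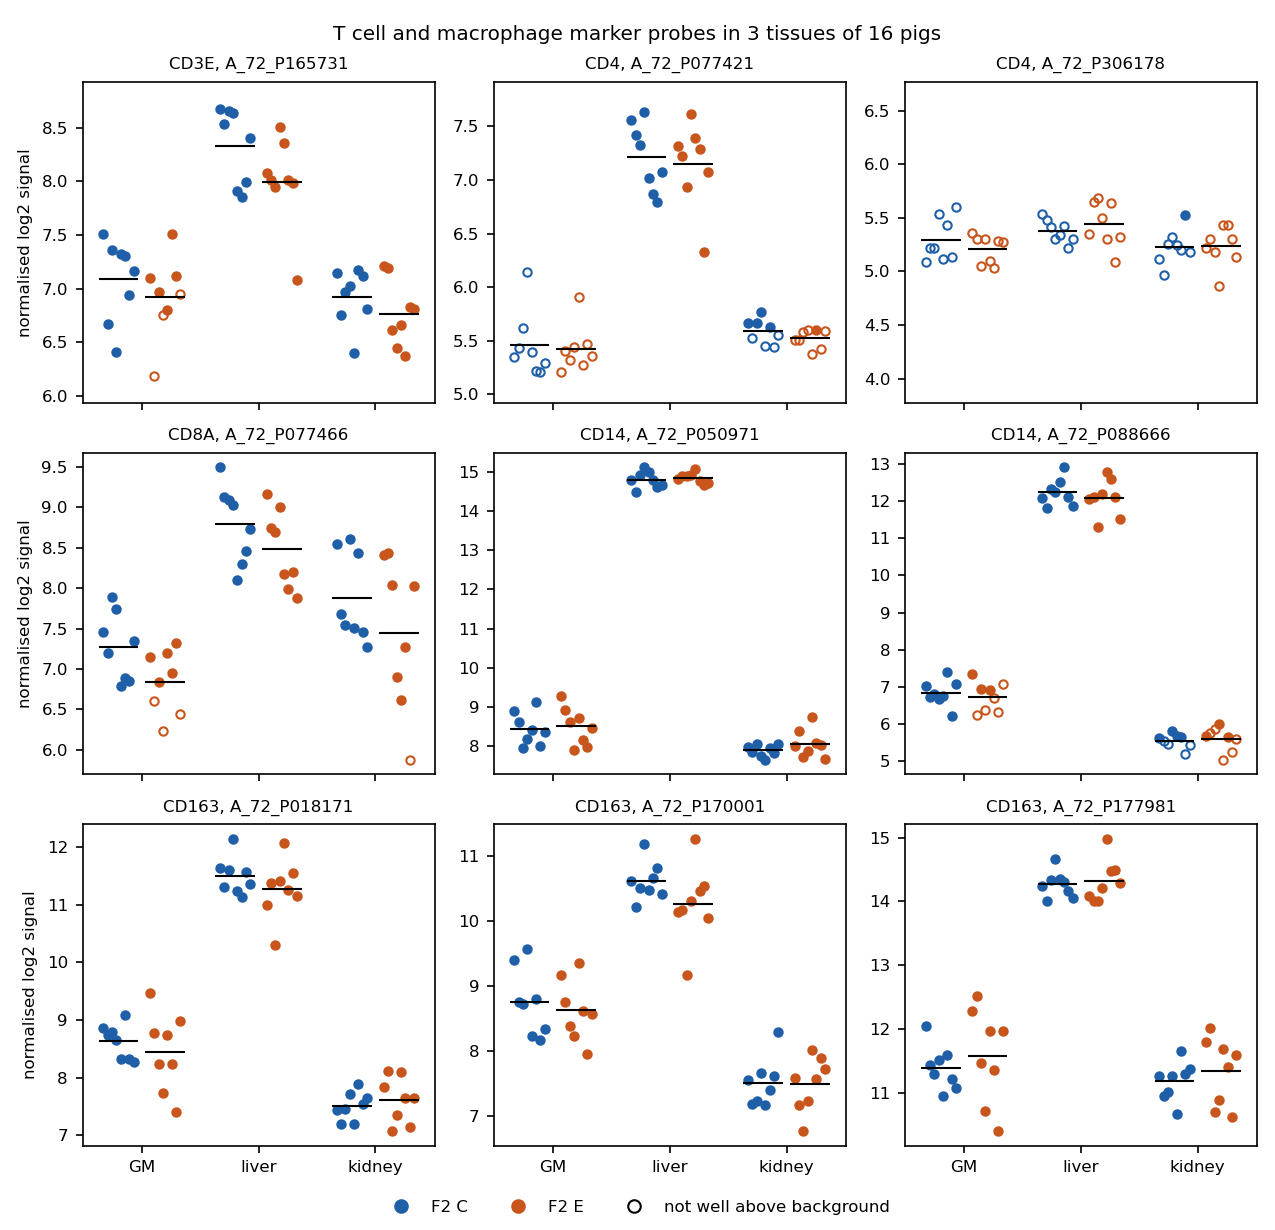
Quantile-normalised log2 signal (vertical axis) of each of the 9 marker probes in GM, liver and kidney (horizontal axis), normalised over all 48 arrays, with 1 point per pig, F2 C in blue and F2 E in orange, and the group mean as a bar. Open points are spots not well above background: all 16 GM points of CD4 A_72_P077421 are open, and the 8 tested probes have their highest means in liver.

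Liver held the highest level of every marker that could be tested. Of the 8 probes tested, 8 were higher in liver than in GM, where 39.4% of the 30111 probes tested were called higher in liver and 37.8% higher in GM. Against kidney 8 of 8 were again higher in liver, where 33.7% of the 34151 probes tested were called higher in liver and 36.9% higher in kidney. The values in these comparisons are log2 signals after quantile normalisation over the 48 arrays, the ratios come from limma with the pig as a random block, and a probe was called at a Benjamini-Hochberg adjusted p below 0.05 over all probes tested. In whole tissue, fewer cells of a type and less RNA per cell cannot be told apart.

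Among the T cell markers, CD3E had log2 signals between 6.19 and 7.51 (median 7.03, n = 16) in GM, between 7.08 and 8.68 (median 8.05) in liver and between 6.37 and 7.21 (median 6.82) in kidney. The ranges of GM and kidney lay over each other, and the lowest liver array reached into both. Liver was above GM by 1.16 ± 0.12 (SE) on the log2 scale, or 2.24-fold, in 16 of 16 pigs (limma adjusted p = 4.54e-12; exact permutation p = 3.05e-05, the smallest that the 65536 sign flips of 16 pigs can give). Kidney was below liver by the ratio -1.32 ± 0.12 in 16 of 16 pigs (limma adjusted p = 1.25e-13). Kidney and GM did not differ beyond their spread at -0.16 ± 0.12 (95% interval -0.40 to 0.09, limma adjusted p = 0.235). The probe was called lower in kidney, at -0.58, where the median signal was scaled to its 75th percentile. That scaling put the median ratio of all probes tested at -0.59, so CD3E was not lower than the middle probe.

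CD4, the helper coreceptor, had log2 signals between 6.33 and 7.63 (median 7.26) in liver with its probe A_72_P077421. The 16 GM arrays lay between 5.20 and 6.14 and the 16 kidney arrays between 5.38 and 5.77, both wholly below the liver arrays. Since no GM spot was well above background, only a bound can be given, by which liver was at least 2.18-fold higher than GM (limma adjusted p = 1.15e-22). Kidney, where 5 of 16 arrays measured the probe, was below liver by the ratio -1.62 ± 0.09 (limma adjusted p = 3.35e-21). No fold between kidney and GM is given. With the software's background-corrected signal the ratio of kidney to liver was -3.92, against -2.23 with the median signal scaled to the 75th percentile, so its size rests on how the background is treated.

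CD8A had log2 signals between 6.23 and 7.89 (median 7.05) in GM, between 7.88 and 9.49 (median 8.71) in liver and between 5.88 and 8.61 (median 7.61) in kidney. Its kidney arrays spread most, with an SD of 0.77 against 0.45 in GM and 0.49 in liver, and the ranges of all tissues touched or overlapped. The ratio of liver to GM was 1.58 ± 0.19, or 2.99-fold, in 16 of 16 pigs (limma adjusted p = 1.94e-10), and that of kidney to liver was -0.97 ± 0.19, lower in 15 of 16 pigs (limma adjusted p = 1.14e-05). CD8A was the only member called higher in kidney than in GM, by 0.61 ± 0.19 or 1.52-fold in 12 of 16 pigs (limma adjusted p = 0.00354; exact permutation p = 0.00916). In that comparison 40.4% of the 34066 probes tested were called higher in kidney and 35.4% higher in GM, and among the 8 member probes 1 was higher and 4 were lower in kidney. The ratio of CD8A was 0.61 within F2 C alone and 0.61 within F2 E alone, and 0.80 without the pigs of the 2 dimmest kidney arrays. With the median signal scaled to its 75th percentile it was 0.34 and missed the threshold (limma adjusted p = 0.0625). That scaling moved the median ratio of all probes to -0.59 between kidney and GM, from 0.06, and the share of called probes that were higher in kidney from 53.3% to 30.0%. It moved the median ratio to -0.16 and the share higher in liver from 51.0% to 41.6% in the comparison of liver with GM, and the median to -0.37 and the share higher in kidney from 52.3% to 32.7% in that of kidney with liver.

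The largest tissue ratios among the members were those of CD14. Its probe A_72_P050971 had signals between 18232 and 52031 (median 32205) on the liver arrays, between 133 and 304 on the GM arrays and between 88 and 719.5 on the kidney arrays, before normalisation. No GM or kidney array came near a liver array. On the log2 scale liver was above GM by 6.34 ± 0.11, or 80.7-fold (limma adjusted p = 2.10e-43), and kidney was below liver by the ratio -6.83 ± 0.11, or 114-fold (limma adjusted p = 4.01e-44). The second CD14 probe, A_72_P088666, gave 5.37 ± 0.12 (41.4-fold) for liver over GM and -6.58 ± 0.12 (95.8-fold) for kidney over liver, again in 16 of 16 pigs each. Its kidney level was close to background, so that its ratio of kidney to liver was -9.12 with the background-corrected signal. Both probes were lower in kidney than in GM. A_72_P050971 was lower by the ratio -0.50 ± 0.11 in 13 of 16 pigs (limma adjusted p = 7.66e-05) and A_72_P088666 by -1.21 ± 0.12 in 16 of 16 (limma adjusted p = 2.66e-12), with -2.86 for the latter on the background-corrected signal. The liver levels of CD14 A_72_P050971 varied little between pigs, with an SD of 0.17 against 0.43 in GM and 0.27 in kidney.

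CD163, the scavenger of haemoglobin and haptoglobin, was measured by 3 probes that ordered liver above the other tissues alike. Probe A_72_P018171 had log2 signals between 7.41 and 9.46 (median 8.70) in GM, between 10.31 and 12.15 (median 11.37) in liver and between 7.08 and 8.12 (median 7.59) in kidney. The liver arrays of this probe did not overlap with either of the others. For A_72_P170001 the lowest liver array, at 9.17, lay below the highest GM array, at 9.58. Liver over GM was 2.84 ± 0.15 (7.18-fold) for A_72_P018171, 1.75 ± 0.15 (3.37-fold) for A_72_P170001 and 2.81 ± 0.15 (7.01-fold) for A_72_P177981, with a largest limma adjusted p of 9.46e-15. Kidney over liver was -3.82 ± 0.15, -2.94 ± 0.15 and -3.03 ± 0.15 in the same order. Every one of these 6 ratios had the same direction in 16 of 16 pigs. Between kidney and GM the probes parted. A_72_P018171 was lower in kidney by the ratio -0.98 ± 0.15 (limma adjusted p = 5.36e-08) and A_72_P170001 by -1.19 ± 0.15 (limma adjusted p = 1.13e-09), both in 16 of 16 pigs. A_72_P177981 was not called at -0.23 ± 0.15 (limma adjusted p = 0.171), but was with both signals scaled to the 75th percentile, at -0.50 and -0.38. The median over all probes was -0.59 with the scaled median signal and -0.05 with the background-corrected signal. With the scaled median signal A_72_P177981 was thus not lower than the middle probe. The tests of the difference between probes of a gene were not run, since levels of different probes are not comparable.

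**Figure D2:**
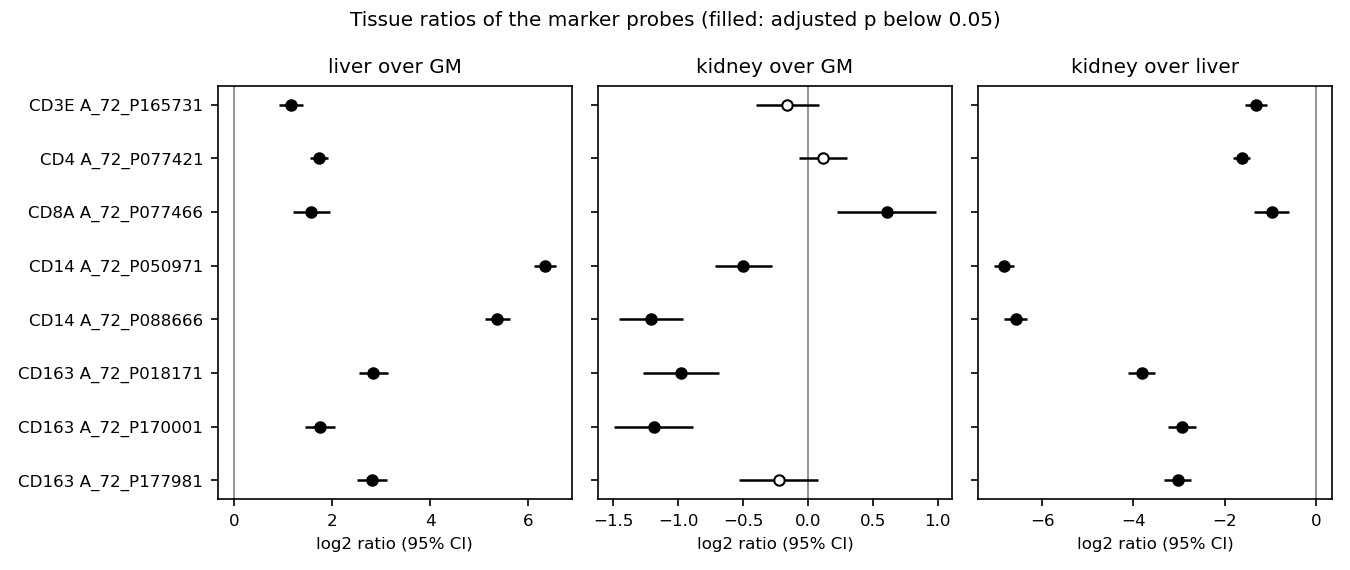
Log2 ratios of the 8 tested marker probes between tissues (horizontal axis, with 95% intervals from limma), for liver over GM, kidney over GM and kidney over liver, each over 16 pigs, filled where the adjusted p was below 0.05. The CD14 probes lie farthest from 0 at 6.34 and 5.37 for liver over GM, and CD8A is the only filled point above 0 for kidney over GM. The value of CD4 for liver over GM is the measured one, which is not a fold, since its GM spots were not well above background.

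Other genes of the same cells were read from lists of marker genes. Of 26 genes of the T cell receptor complex and T cell signalling 13 were named on the array. Of their 11 probes tested between liver and GM, 10 were higher in liver and 1 was lower, with a median log2 ratio of 1.06 against 0.03 over all probes. IL2RA, a chain of the interleukin 2 receptor, was 3.29 ± 0.13 higher, ICOS, a costimulator of activated T cells, 1.56 ± 0.15 (1 and 3 of 16 GM arrays above background), the receptor zeta chain CD247 1.13 ± 0.12 with A_72_P374908, while the adhesion molecule CD2, which no GM array measured above background, was at least 1.48-fold higher. Between kidney and liver 10 of 15 T cell probes were lower in kidney and 1 was higher (median -0.38, all probes 0.02). The exception was GATA3 at 4.17 ± 0.13, a factor of helper T cells that kidney epithelium also expresses. IL2RA (-3.59 ± 0.13, 1 of 16 kidney arrays above background), the cytokine gene IL16 (-1.60 ± 0.12) and CD247 A_72_P226042 (-1.94 ± 0.15) were lower in kidney. Between kidney and GM 6 of 14 were higher and 3 lower (median 0.10, all probes 0.06), but 2 higher and 11 lower with the median signal scaled to the 75th percentile. The summed signal of the list lay between 3358 and 5513 in GM, between 6268 and 9455 in liver and between 9143 and 20360 in kidney. Without GATA3, left out after its values were seen, it lay between 2682 and 4120 in GM, between 5676 and 8675 in liver and between 1810 and 4000 in kidney, so that the high kidney sum was that of GATA3. Of the cytotoxic and natural killer genes, 3 of 16 were on the array, and all 3 probes were higher in liver than in GM. KLRK1, an activating receptor, was 2.13 ± 0.18 higher, and the protease gene GZMB 0.51 ± 0.18. GZMB missed the threshold with the slide as a block (limma adjusted p = 0.0712) and within F2 E alone, at 0.28 (limma adjusted p = 0.335). No fold is given for the death ligand gene FASLG, which no GM array measured above background. GZMB was higher in kidney than in liver (0.75 ± 0.18) while KLRK1 was lower (-1.07 ± 0.18).

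Most probes of the macrophage list were higher in liver than in the other tissues. Of its 30 genes 15 were on the array, and of 17 probes tested 16 were higher in liver than in GM and 1 was lower (median 1.39, all probes 0.03). FCGR2B, an inhibitory receptor for immunoglobulin G that liver sinusoidal endothelium also carries, was 4.09 ± 0.15 higher, and AIF1, a calcium-binding protein of macrophages, 2.96 ± 0.11 and 2.86 ± 0.11 with its pair of probes. The macrophage lectin SIGLEC1 was at least 6.08-fold higher, since no GM array measured it above background. Against kidney 15 of 19 macrophage probes were higher in liver and 0 were higher in kidney (median of kidney over liver -0.99, all probes 0.02), among them FCGR2B (-4.44 ± 0.15), the complement gene C1QA (-3.18 ± 0.17) and the leukocyte integrin chain ITGB2 (-1.51 ± 0.12 with A_72_P146616). SIGLEC1 was also called lower in kidney, but only 2 of 16 kidney arrays measured it above background. Between kidney and GM 9 of 17 were higher in kidney and 4 lower (median 0.24), and AIF1 was higher by 2.39 ± 0.11 and 1.57 ± 0.11, ITGB2 A_72_P146616 by 0.71 ± 0.12 and TYROBP, a signalling adaptor of myeloid and natural killer cells, by 0.67 ± 0.14. With the median signal scaled to the 75th percentile the count was 4 higher and 7 lower. CD14 and 2 of the 3 CD163 probes were lower in kidney than in GM while these AIF1 probes were higher, so that the macrophage markers did not order kidney and GM alike. The summed signal of the macrophage list lay between 10823 and 22025 in GM, between 70502 and 122109 in liver and between 18722 and 34633 in kidney.

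The genes that work with CD14 and CD163 were given lists of their own. Of 19 probes of lipopolysaccharide recognition, 13 were higher in liver than in GM and 5 lower (median 0.79). LBP, the plasma protein that delivers lipopolysaccharide to CD14, was 4.91 ± 0.11 higher (2 of 16 GM arrays above background), the Toll-like receptor genes TLR2 and TLR1 2.10 ± 0.12 and 2.01 ± 0.09, and the cytokine gene IL10 2.05 ± 0.15. LY96, the partner of TLR4, was 1.79 ± 0.10 higher in kidney than in GM and IRAK4, a kinase downstream of the Toll-like receptors, 1.01 ± 0.11, while TNF was lower with the probes A_72_P211447 (-2.21 ± 0.18) and A_72_P146356 (-1.06 ± 0.12). The third TNF probe, A_72_P175851, was not called (limma adjusted p = 0.203) and no GM array measured it above background. That list held 6 probes higher and 6 lower between kidney and GM, and 2 higher and 13 lower between kidney and liver. Of 15 probes of haemoglobin scavenging, 14 were higher in liver than in GM, led by hemopexin (HPX, 10.501 ± 0.22) and haptoglobin (HP, 10.31 ± 0.34 and 10.01 ± 0.41), the plasma proteins that bind haem and haemoglobin and that hepatocytes secrete. Of the probes of this list 10 belonged to the ferritin heavy chain FTH1, and with the signals scaled to the 75th percentile 8 of the 15 were higher in liver. Between kidney and GM the list had 12 higher and 1 lower, and 2 or 3 higher and 8 lower with those scalings.

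The B cell probes and the 1 neutrophil probe were also higher in liver than in GM. Of all probes tested 39.4% were called higher in liver. Of 6 B cell probes 6 were higher in liver than in GM (median 0.67), with CD72, a B cell lectin, at 2.18 ± 0.15 for A_72_P146971 and at least 1.22-fold higher for A_72_P197872, which no GM array measured above background, and 4 were lower in kidney than in liver and 2 higher. The neutrophil list had the probe of NCF1, a subunit of the phagocyte oxidase that monocytes also make, which was at least 2.09-fold higher in liver than in GM, where no array measured it above background. Its ratio of kidney to liver was -1.39 ± 0.10. Of 5 endothelial probes 3 were higher and 2 lower in liver than in GM. Their part in the ratios of the T cell and macrophage markers was not tested.

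Between F2 E and F2 C 0 member probes were called in any tissue. In GM 7 probes were tested, against a background of 0.769% of 25625 probes called. These 197 calls were 88 to 196 with 1 array left out, and fewer by over 1.5 times without F2 E replicates 3, 4 or 5 (88, 112 and 120) or F2 C replicates 2, 5, 6, 7 or 8 (93, 100, 113, 118 and 107). In liver 8 were tested, where 0.0937% of 28823 were called (27 probes, 13 without F2 E replicate 1 and 17 without F2 C replicate 8), and in kidney 8, where 0.0119% of 33664 were called. At an unadjusted p below 0.05 limma called 1 member probe for GM and 0 for liver and kidney. The share of all probes at that unadjusted limit is not given, so the limma counts cannot be set against the adjusted shares above. The methods' t-test called 0 member probes after adjustment. For these comparisons the signals were normalised within each tissue, and F2 E over F2 C is given throughout.

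CD8A had the lowest unadjusted p in GM. Its log2 signals lay between 6.13 and 7.02 (median 6.50, n = 8) in F2 C and between 5.74 and 6.54 (median 6.21, n = 8) in F2 E. The groups overlapped over much of their range, and 3 of the F2 E arrays did not measure the probe above background. The ratio was -0.34 ± 0.15 (95% interval -0.65 to -0.02, unadjusted exact permutation p = 0.0502, limma adjusted p = 0.284), and the adjusted p was 0.819 with the slide as a random block. In liver the log2 signals of CD8A were between 8.10 and 9.46 (median 8.85) in F2 C and between 7.88 and 9.13 (median 8.43) in F2 E, with a ratio of -0.30 ± 0.21 (95% interval -0.75 to 0.15, limma adjusted p = 0.760). In kidney they were between 7.74 and 9.19 (median 8.12) in F2 C and between 5.97 and 8.9999 (median 8.15) in F2 E. The medians of the kidney groups were nearly equal and the means differed by -0.52 ± 0.40 (95% interval -1.36 to 0.32, exact permutation p = 0.260). Without the 2 dimmest kidney arrays the ratio was -0.04, so that these arrays carried the difference of the means.

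CD3E was lower in the mean of F2 E in all tissues, by amounts within the spread. Its log2 signals in liver lay between 7.86 and 8.66 (median 8.45) in F2 C and between 7.15 and 8.49 (median 8.01) in F2 E. F2 E replicate 8 stood at 7.15 with the next array at 7.95, and the other arrays of the groups overlapped. The liver ratio was -0.32 ± 0.18 (95% interval -0.69 to 0.05, exact permutation p = 0.102, limma adjusted p = 0.656). It was -0.12 ± 0.14 in GM, where it was 0.07 with the median signal scaled to the 75th percentile, and -0.19 ± 0.17 in kidney. CD4 differed by -0.06 ± 0.15 in liver, which was 0.09 with the same scaling, and by -0.09 ± 0.09 in kidney. The 95% intervals were -0.42 to 0.17 for CD3E in GM and -0.29 to 0.10 for CD4 in kidney, narrower than that of CD8A in kidney. Only 4 F2 C and 1 F2 E kidney arrays measured CD4 above background. Its narrow interval there is thus mostly that of values near background.

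The CD14 ratios were between -0.15 and 0.18 over the tissues. For A_72_P050971 in liver the F2 C pigs lay between 14.60 and 15.27 (median 14.92) and the F2 E pigs between 14.79 and 15.22 (median 14.99), and the ratio was 0.05 ± 0.11 (95% interval -0.17 to 0.27), which turned to -0.04 and -0.11 with the signals scaled to the 75th percentile. This was the narrowest interval of the members in liver. The CD163 ratios in liver were -0.23 ± 0.20, -0.36 ± 0.22 and 0.05 ± 0.15 for A_72_P018171, A_72_P170001 and A_72_P177981. They were -0.16 ± 0.22, -0.11 ± 0.21 and 0.20 ± 0.28 for GM, and for kidney 0.11 ± 0.18, -0.02 ± 0.21 and 0.15 ± 0.20. With quantile normalisation the 3 probes of 1 gene thus stood on both sides of 0 in each tissue. With both signals scaled to the 75th percentile A_72_P177981 turned below 0 in liver. A_72_P170001 turned above 0 in kidney with the scaled median signal. F2 E pigs spread more widely than F2 C pigs for A_72_P177981 in GM, from 9.46 to 11.74 against from 10.05 to 11.24, a difference in spread that was not tested.

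**Figure D3:**
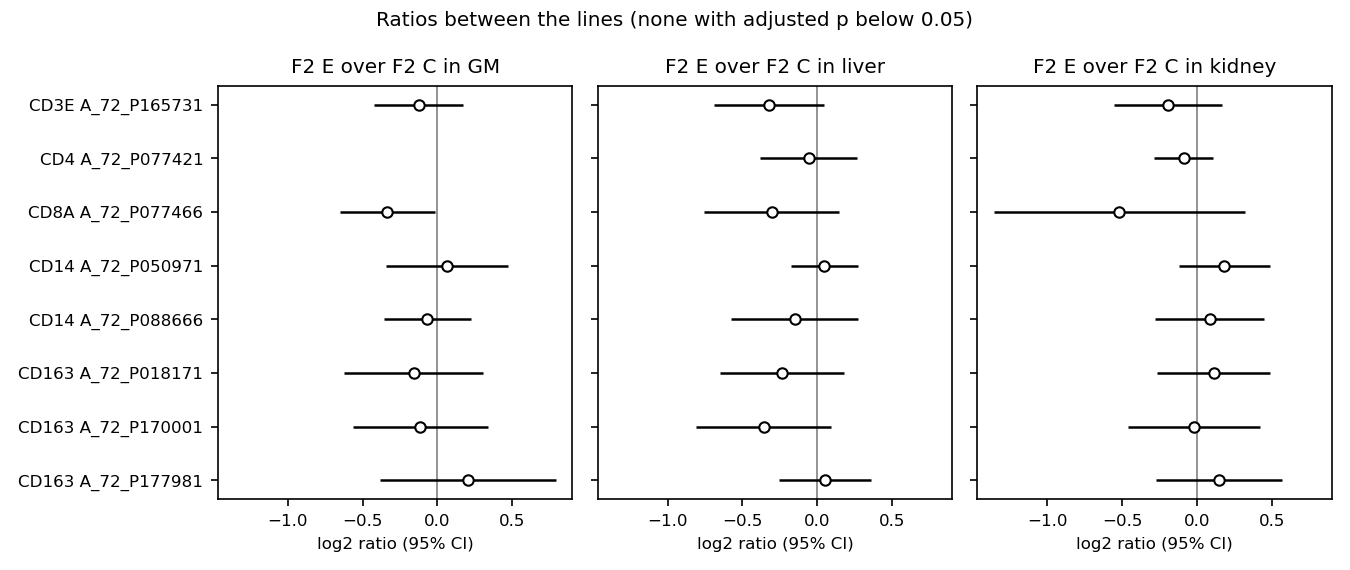
Log2 ratios of F2 E over F2 C (horizontal axis, with 95% intervals from limma) for the tested marker probes in GM, liver and kidney, 8 pigs against 8. No point had an adjusted p below 0.05, and the widest interval is that of CD8A in kidney, from -1.36 to 0.32.

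The lists of related genes held 0 probes called between the groups in any tissue. The lowest adjusted p among the T cell genes was that of CD247 in liver, with -0.73 ± 0.15 for A_72_P374908 (limma adjusted p = 0.0902) and -0.75 ± 0.18 for A_72_P226042 (limma adjusted p = 0.140). Of the 11 T cell probes tested in liver 9 had a ratio below 0 and 2 above, with a median of -0.17 against -0.02 over all probes, while in kidney 5 of 14 were below 0 and in GM 1 of 5. Of the macrophage probes 9 of 17 were below 0 in liver (median -0.01), 7 of 14 in GM and 7 of 17 in kidney. TRAF6, an adaptor of Toll-like receptor signalling, had 0.65 ± 0.29 in GM (limma adjusted p = 0.283), and CD80, a costimulatory ligand, 0.45 ± 0.20 (limma adjusted p = 0.279). Other lists reached lower values in GM, with a lowest limma adjusted p of 0.106 for haemoglobin scavenging and 0.227 for B cells. Of the 15 haemoglobin scavenging probes 10 were below 0 in GM.

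Whether the difference between the groups depended on the tissue was tested by contrasts of the ratios. Of the 8 member probes 0 were called between liver and GM, where 0.123% of all probes tested were called, 0 between kidney and GM (0.047%), and 0 between kidney and liver (0.0205%). At an unadjusted p below 0.05 limma called 0 members in each. The differences of the ratios were between -0.23 and 0.34, with the largest for the CD163 probes A_72_P018171 (0.34 ± 0.29) and A_72_P170001 (0.34 ± 0.30) between kidney and liver.

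Barrows and females differed in 0 of 7 member probes in GM, where 0.121% of all probes were called, in 0 of 8 in liver (0.121%) and in 0 of 8 in kidney (0.0921%). All 7 ratios of barrows over females were above 0 in GM, from 0.03 to 0.32, as were all 8 in liver, from 0.0018 to 0.42, and 7 of 8 were below 0 in kidney. The largest was CD14 A_72_P088666 in liver at 0.42 ± 0.18 (exact permutation p = 0.0448, limma adjusted p = 0.306), which together with 0 in GM and kidney made 1 member probe at an unadjusted p below 0.05 in limma. The share of all probes at that unadjusted limit is not given, so this count cannot be set against the adjusted shares. The ratio of the other CD14 probe in liver was 0.03 ± 0.11.

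The pig numbers of the labels fall into a lower and an upper series, 4 pigs of each group in each, and the series lay on different slides in all tissues, so that series and slide cannot be told apart. This split was chosen after the slides were known and its values are a description. CD8A was higher in the upper series in every tissue, by 0.31 in GM, 0.79 in liver and 1.13 in kidney on the log2 scale. In liver the lower series lay between 7.88 and 8.71 and the upper series between 8.67 and 9.46, with the difference at 0.77 in F2 C and 0.82 in F2 E. In kidney the difference was 0.46 in F2 C and 1.79 in F2 E. The 4 upper F2 E kidney arrays had CD8A signals of 643.5, 745, 641.5 and 424, and the 4 lower ones 145, 44, 199 and 33, of which 44 and 33 came from the dimmest arrays. F2 E over F2 C in kidney was therefore 0.15 within the upper series and -1.18 within the lower. CD3E differed by 0.41 in liver and 0.29 in kidney but by -0.19 in GM, and CD4 A_72_P077421 by 0.36 in liver. The CD163 probes A_72_P018171, A_72_P170001 and A_72_P177981 gave 0.45, 0.62 and 0.71 in GM and -0.06, -0.30 and -0.21 in liver. By group the liver differences were 0.35, 0.04 and 0.10 in F2 C and -0.48, -0.64 and -0.53 in F2 E. In liver CD163 thus had the opposite sign to CD8A in F2 E only.

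**Figure D4:**
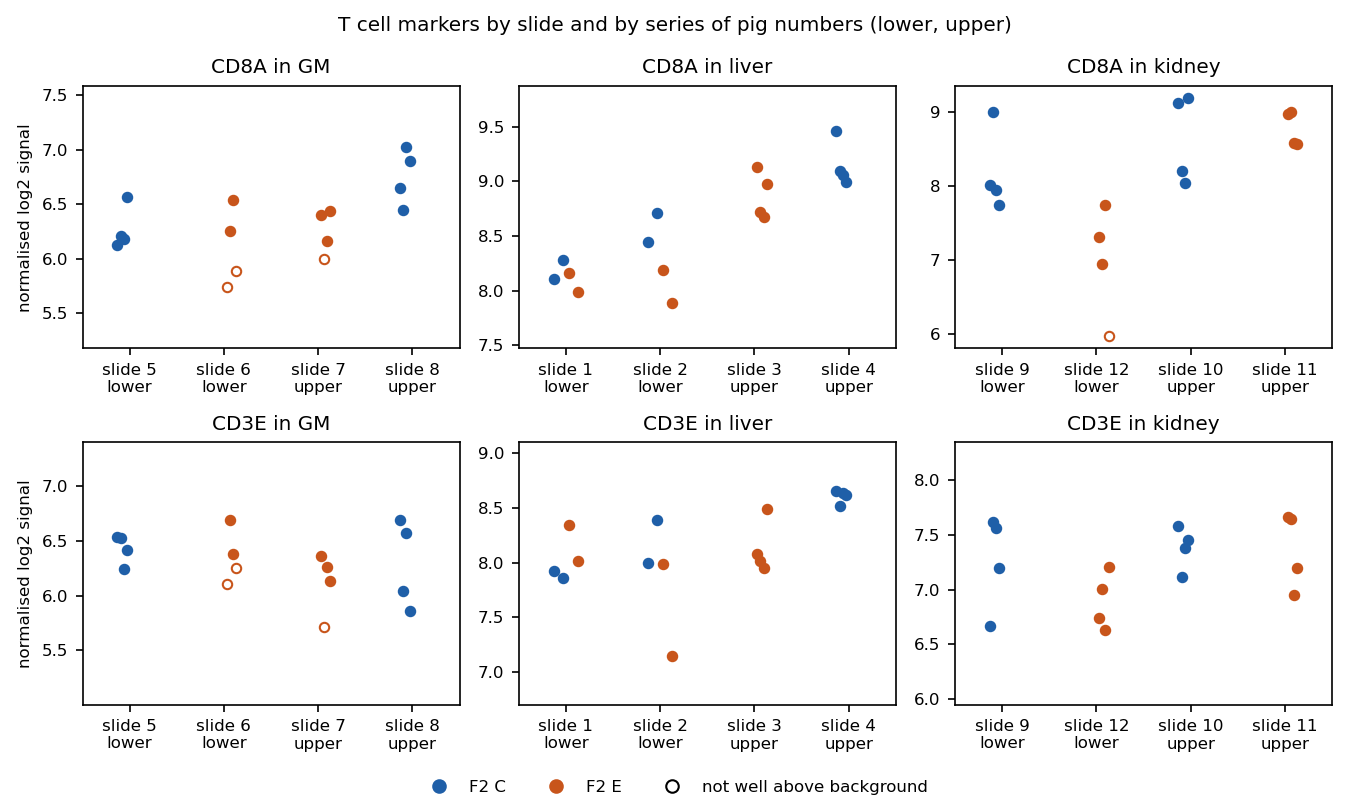
Quantile-normalised log2 signal within each tissue (vertical axis) of CD8A and CD3E by slide and series of pig numbers (horizontal axis), 1 point per pig, F2 C in blue, F2 E in orange, open where not well above background. In liver the CD8A values of the upper series lie between 8.67 and 9.46 and those of the lower series between 7.88 and 8.71, and in kidney the lower F2 E slide lies between 5.97 and 7.74.

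In liver 2 slides held both groups, with 2 pigs of each on a slide. These were slides 1 and 2, which were scanned on different days, so that slide and scan day cannot be told apart. Within slide 1 F2 E over F2 C was 0.29 for CD3E and 0.36 for CD4, and within slide 2 -0.62 and -0.20. For the CD163 probes A_72_P018171, A_72_P170001 and A_72_P177981 it was 0.48, 0.30 and 0.43 within slide 1 and -0.12, -0.33 and 0.31 within slide 2. CD8A had -0.12 and -0.54, CD14 A_72_P050971 0.01 and 0.06, and CD14 A_72_P088666 -0.02 and -0.18. CD3E, CD4 and both CD163 probes A_72_P018171 and A_72_P170001 thus had opposite signs on the slides, with 2 pigs against 2 on each.

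Markers of 1 cell type that vary together from pig to pig would show as correlations over the 16 pigs of a tissue. Over the 64 pairs of member probes that were well above background on at least 8 arrays of the tissue, 14 passed a permutation test of Pearson's r after Benjamini-Hochberg adjustment over all 64, of which GM held 7, liver 5 and kidney 2. Probes of the same gene made up 8 of these 14: 4 of the 4 such GM pairs, 3 of the 4 liver pairs and 1 of the 3 kidney pairs. The highest was CD163 A_72_P018171 with A_72_P177981 in kidney at r = 0.94 (rho = 0.91, permutation p = 1e-05 for both, the smallest that 100000 permutations can give, adjusted p = 0.00064), with r = 0.92 without the 2 pigs farthest from the median and 0.96 after centring on the slide.

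Of the T cell pairs CD3E and CD8A went together in liver (r = 0.75, permutation p = 0.00059, adjusted p = 0.00806; rho = 0.78, permutation p = 0.00062, adjusted p = 0.00661). Without the 2 pigs farthest from the CD3E median r was 0.64. It was 0.94 in F2 C and 0.53 in F2 E, 0.66 in the lower series and 0.68 in the upper, and 0.68 after centring on the slide, where permutation within slides no longer passed (adjusted p = 0.123). CD4 correlated with CD3E at r = 0.59 (permutation p = 0.0178, adjusted p = 0.067; rho = 0.82, permutation p = 0.00018, adjusted p = 0.00512) and with CD8A at r = 0.58 (permutation p = 0.0175, adjusted p = 0.067; rho = 0.59, permutation p = 0.0191, adjusted p = 0.0794) in liver. Within the lower series r was 0.15 and -0.19 for these pairs and within the upper 0.80 and 0.64. After centring on the slide r was 0.23 and 0.18 (permutation within slides, adjusted p = 0.658 and 0.702). In the first pair the lower series and the centred value include F2 E replicate 8, whose CD3E stood apart at 7.15. Without the 2 pigs farthest from the CD3E and the CD4 median, in that order, r was 0.70 and 0.59. With the background-corrected signal r was 0.77 and 0.51 (permutation adjusted p = 0.00528 and 0.107). With 4 pigs on a slide, whether these relations held within slides was not settled. In GM CD3E and CD8A had r = 0.21 (permutation p = 0.428, adjusted p = 0.583; rho = 0.30, permutation p = 0.259). In kidney they had r = 0.52 (permutation p = 0.0365, adjusted p = 0.111; rho = 0.58, permutation p = 0.0199, adjusted p = 0.0794), with 0.71 without the dimmest arrays and 0.12 after centring on the slide.

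Of the macrophage pairs CD14 A_72_P050971 and CD163 A_72_P177981 went together in GM (r = 0.76, permutation p = 0.00063, adjusted p = 0.00806; rho = 0.82, permutation p = 0.00024, adjusted p = 0.00512). Without the 2 pigs farthest from the CD14 median r was 0.79. It was 0.58 in F2 C and 0.88 in F2 E, 0.61 and 0.82 in the lower and the upper series, and 0.66 after centring on the slide (adjusted p = 0.0244). CD14 A_72_P050971 also went with CD163 A_72_P018171 in GM (r = 0.74, permutation p = 0.00091, adjusted p = 0.00971; rho = 0.66, permutation p = 0.00664; r = 0.59 without the 2 farthest pigs and 0.71 after centring, adjusted p = 0.0154). In kidney the same pair had r = 0.64 (permutation p = 0.00543, adjusted p = 0.029; rho = 0.48, permutation p = 0.0629), which fell to 0.28 without the 2 farthest pigs. It was 0.73 after centring on the slide (permutation within slides, adjusted p = 0.0654) and 0.63 without the dimmest arrays. In the lower and the upper series it was 0.72 and 0.59, and in F2 C and F2 E 0.37 and 0.71. In liver CD14 A_72_P088666 went with CD163 A_72_P170001 (r = 0.72, permutation p = 0.00208, adjusted p = 0.019; rho = 0.68, permutation p = 0.00511; 0.61 without the 2 farthest pigs, 0.28 in F2 C and 0.89 in F2 E, and 0.82 after centring). Of the 33 pairs of a T cell with a macrophage marker 0 passed by Pearson's r. By rho 1 passed, CD3E with CD163 A_72_P018171 in liver (rho = 0.66, permutation p = 0.00663, adjusted p = 0.0327; r = 0.50, permutation p = 0.0533, adjusted p = 0.142), and with the background-corrected signal 1, CD4 with the same CD163 probe in liver (r = 0.64, adjusted p = 0.0206).

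**Figure D5:**
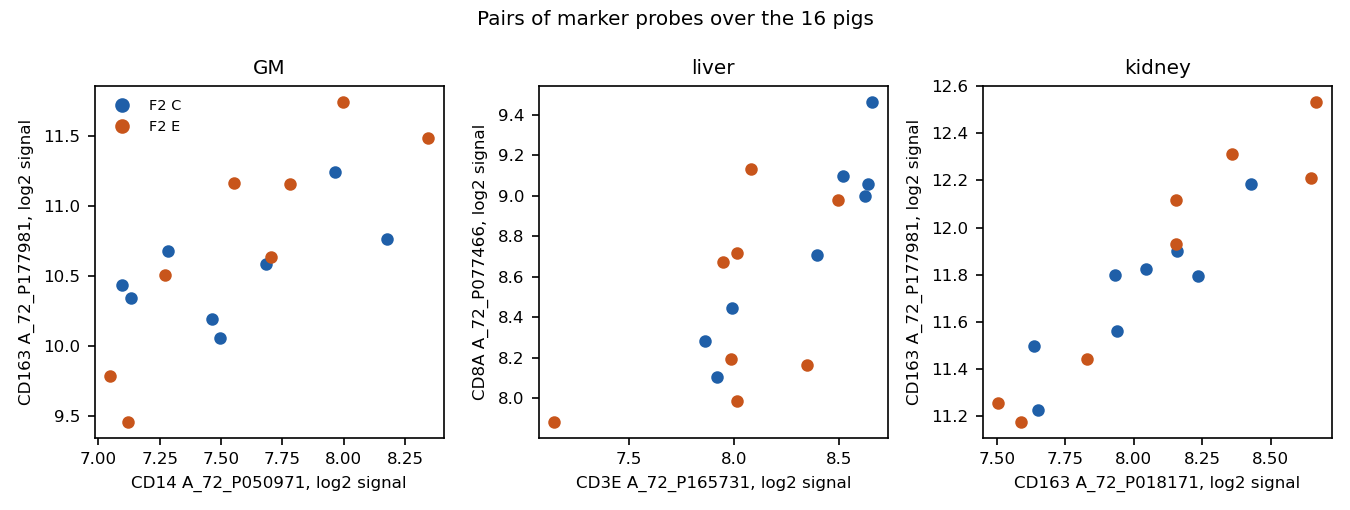
Log2 signals of pairs of marker probes over the 16 pigs (both axes, normalised within the tissue), F2 C in blue and F2 E in orange: CD14 A_72_P050971 with CD163 A_72_P177981 in GM (r = 0.76), CD3E with CD8A in liver (r = 0.75) and CD163 A_72_P018171 with A_72_P177981 in kidney (r = 0.94). In liver 1 F2 E pig stands at a CD3E value of 7.15.

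For each probe the 3 probes with a gene name that were most like it were sought over the 16 liver arrays, among 1736 probes well above background on all of them, and their r is a description over arrays that share slides. CD3E was most like CD3G, another chain of the same receptor complex (r = 0.90), followed by the protease inhibitor gene SERPINA1 (0.83) and the cytokine gene IL18 (0.82). CD8A was most like the kinase gene ARAF (0.88), ICOS (0.84) and SERPINA1 (0.82), and CD4 was most like PNPLA2, CACNB4 and RPL6 (0.83, 0.83 and 0.82). CD163 A_72_P018171 was most like its own probe A_72_P170001 (0.92) and then RAE1 (0.88) and CAPN2 (0.83), and A_72_P177981 was most like 3 probes of RAE1 (0.90, 0.87 and 0.82). CD14 A_72_P088666 was most like 2 probes of AP3B1 (0.93 and 0.92) and TMEM167B (0.91), while CD14 A_72_P050971 was most like HPS6, RPS3 and BRD2 (0.74, 0.74 and 0.71), so that the CD14 probes shared none of these.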

How the data were processed

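RNA of GM, liver and kidney was extracted with Trizol, labelled with Cy3 and hybridised in 1 colour. The authors scanned and quantified the arrays in Feature Extraction (Agilent), and its intensities per spot were deposited with their flags, with no normalisation between arrays. Per the file headers the version was 10.5.1.1, and the methods name another. Tables with the authors' normalised signals, ratios, p-values and false discovery rates were also deposited and not used here.

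Following the methods, the median pixel signal (intensity, deposited by the authors) was quantile-normalised, within a tissue for group and sex and over 48 arrays for tissues, and log2-transformed. Controls were removed and marked outlier spots set to missing after normalisation. lmFit and eBayes of limma 3.58.1 (R 4.3.3) were fitted to all present probes, line alone in the group comparison, line beside sex, and 6 groups of tissue and line with pig as a random block (correlation 0.0301). At least 2 arrays per group were required. Probes were named through RefSeq accessions (2628 probes), and 4803 spots with Ensembl transcript accessions matched none of them. A bound ("at least") set the brighter tissue's mean log2 signal against the mean of the dim arrays, with each dim value raised to the array's dimmest measured probe where it lay under it. Exact two-sided permutation tests used the 6435 partitions into 8 and 8 pigs (smallest p 0.000155) or sign flips of within-pig differences. SciPy 1.17.1 was used. Scripts were tested on simulated data.

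The members, lists and tests were chosen with earlier results of these data known. Genes named from a list came from its up to 4 probes with the smallest p in a comparison. Alternatives were the software's background-corrected signal and the median signal scaled to the 75th percentile, normexp (offset 50), other filters, marked spots kept, joint normalisation, sex, slide, series or replicate as a term, the methods' t-test, and each pig left out. The normexp fit on the median signal, the slide-centred, Spearman and background-corrected correlations, and the fits without the dimmest kidney arrays were chosen after seeing the data.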

Additional observations from a re-analysis of the deposited data

Results flagged for a closer look

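In 42 groups of 8 pigs, 1 group per measured probe, tissue and line, 2 pigs stood apart from the others by Dixon's criterion (the gap to the nearest pig over the range), where chance gives about 1 in 20 groups. CD3E in liver of F2 E replicate 8 was 7.15, with the nearest pig at 7.95 and a gap of 0.594 of the range. CD163 A_72_P170001 in kidney of F2 C replicate 8 was 8.85, with the nearest pig at 8.17 and a gap of 0.544 of the range.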

How the results depend on the processing

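Of 3966 values under alternatives, 2212 of them with 1 pig left out, 3868 kept direction and side of the threshold or stayed near the main value, 21 lost and 3 gained a call, 47 moved and 27 reversed, 7 of these among 91 called results. With probes well above background on all arrays, 4 members were called for liver over GM, 3 for kidney over GM and 5 for kidney over liver, since fewer members were tested. Those tested were CD14 A_72_P050971 and the 3 CD163 probes, and also CD3E for kidney over liver. Over all probes 13157 of 16447, 13851 of 16489 and 16054 of 20656 were called with that filter, in the same order. With the slide means removed 3, 2 and 1 pairs of probes correlated in GM, liver and kidney, with Spearman's rho 1 in kidney, and with the background-corrected signal 11 in liver. With pig left out of the block or as a fixed block 8, 5 and 8 members were called between tissues. Over all probes 23129 of 30111, 25705 of 34066 and 23978 of 34151 were called without the block, and 23352, 25922 and 24200 with the fixed block. With the replicate number, which only names a pig within its group, as a block 0 members were called between the groups in any tissue, where the calls over all probes were 51 in GM against 197 and 0 in kidney against 4. With the slide as a random block they were 5 in GM, and 505 with a block for the series of pig numbers.

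With the median signal scaled to the 75th percentile the ratios of F2 E over F2 C were 0.0695 for CD3E and 0.15 for CD14 A_72_P088666 in GM, -0.0821 for CD163 A_72_P177981, 0.0946 for CD4 and -0.11 for CD14 A_72_P050971 in liver, and 0.0337 for CD163 A_72_P170001 and 0.24 for CD4 in kidney. Those of kidney over GM were -1.09 for CD4, -0.53 for CD69, and -0.90 and -0.92 for FTH1 A_72_P388104 and A_72_P213758, and that of liver over GM was -0.0404 for FTH1 A_72_P388104. The median over all probes tested was -0.59 for kidney over GM with that scaling. No GM array measured CD4 or CD69 above background, so their ratios of kidney over GM are not folds with either signal. With the background-corrected signal the ratios were -0.0553 for CD163 A_72_P177981 and -0.0392 for CD14 A_72_P050971 between the groups in liver, -0.57 for CD4 and -1.04 and -1.10 for these FTH1 probes in kidney over GM, and -0.11 for FTH1 A_72_P388104 in liver over GM. The cause was not tested. With 1 pig left out the group ratios ranged from -0.0402 to 0.16 for CD14 A_72_P050971 in GM, from -0.000331 to 0.10 for it in liver, from -0.0501 to 0.11 for CD163 A_72_P177981 and from -0.12 to 0.0459 for CD4 in liver, and from -0.10 to 0.10 for CD163 A_72_P170001 in kidney. Barrows over females in liver had 4915 probes called with the median signal scaled, 6.65% of them higher in barrows, against 35 and 54.3%. Among the probes called between the groups in GM 52.3% were higher in F2 E, 38.4% with the background-corrected and 68.5% with the scaled median signal. Normexp on the mean signal was not run, since the mean is not in the columns used here.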
